A study of Mus musculus with 24 samples.

Results

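The nerve plexus in pieces of mouse colon was read from 8 genes of enteric neurons and enteric glia, Elavl4, Uchl1, Vip, Nos1, Ret, S100b, Sox10 and Gfap. They were chosen by symbol as a measure of nerve tissue, and all 8 were found among the 24346 genes listed for every library. The series holds 24 bulk RNA-seq libraries of colorectal tissue from animals under AOM/DSS, the sequence of the mutagen azoxymethane and the colitis agent dextran sulfate sodium that gives rise to tumors in the colon. No library came from an animal without AOM/DSS, so the pieces annotated as normal were exposed as well. The genotype was given as c-MAF_KO or WT, where c-MAF is the transcription factor encoded by Maf, and both kinds of tissue were present for each genotype. Titles divide the KO label into 3 kinds of animal, heterozygous with the leading number 1 (KO-1-hetero), heterozygous with the leading number 8 (KO-8-hetero) and homozygous with the same number (KO-8-homo). The WT label is divided into WT-young and WT-old. Each KO kind gave 3 tumor libraries, WT-young gave 4 and WT-old gave 1, and each of the 5 kinds of animal gave 2 normal libraries. By genotype label this made 9 KO and 5 WT tumors and 6 KO and 4 WT normal pieces. The meaning of the leading numbers, the ages, the cells in which c-MAF was removed and the animal each piece came from are not given in the sources used here. The p-values therefore measure the spread between these libraries, some of which may come from the same animal.

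The enteric nervous system lies in the wall of the gut as ganglia between and beneath the muscle layers, with fibers that reach into the mucosa. Its neurons and glia descend from neural crest cells, which need the receptor Ret and the transcription factor Sox10 to colonize the gut. Inhibitory motor neurons relax the muscle with nitric oxide, made by Nos1, and with the peptide Vip, and Vip fibers also act on epithelium and vessels. Enteric glia surround the neurons and are marked by Sox10, the calcium-binding protein S100b and the filament protein Gfap. Uchl1 (PGP9.5) is an abundant ubiquitin hydrolase of neurons, and Elavl4 (HuD) is a neuronal RNA-binding protein.

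The 8 genes lie on 6 chromosomes in the GRCm38.p6 (mm10) annotation. Elavl4 is on chr4:110203737-110351939, Uchl1 on chr5:66676121-66687234 and Nos1 on chr5:117866839-117958840. Vip is on chr10:5639193-5647617 and S100b on chr10:76253836-76261319. Ret is on chr6:118151748-118197744, Gfap on chr11:102887336-102897200 and Sox10 on chr15:79154913-79164490. RefSeq start-site windows of the same build matched 6 of the 8 genes. The 250 bases before the start are shown for a peptide gene, a general neuronal gene and a glial gene that were lower in tumors (below), with matches to 5 short motifs in capitals. The motifs were TGACGT (a cyclic AMP response element half-site), ACAAAG and ACAATG (letters bound by SOX proteins), CAGCTG (an E-box) and TATAAA, each searched on both strands in 300-base windows that end 50 bases after the start. None of these 5 motifs overlaps another in the matches found.
Vip: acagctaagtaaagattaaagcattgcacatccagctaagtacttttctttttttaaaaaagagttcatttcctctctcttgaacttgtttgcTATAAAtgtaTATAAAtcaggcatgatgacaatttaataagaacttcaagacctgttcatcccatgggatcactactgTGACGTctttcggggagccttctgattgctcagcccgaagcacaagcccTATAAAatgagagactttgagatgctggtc
Elavl4: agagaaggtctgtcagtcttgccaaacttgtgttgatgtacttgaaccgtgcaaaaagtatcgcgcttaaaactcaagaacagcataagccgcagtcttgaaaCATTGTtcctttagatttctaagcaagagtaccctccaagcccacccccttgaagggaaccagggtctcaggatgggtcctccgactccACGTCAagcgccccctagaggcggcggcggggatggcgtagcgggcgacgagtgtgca
S100b: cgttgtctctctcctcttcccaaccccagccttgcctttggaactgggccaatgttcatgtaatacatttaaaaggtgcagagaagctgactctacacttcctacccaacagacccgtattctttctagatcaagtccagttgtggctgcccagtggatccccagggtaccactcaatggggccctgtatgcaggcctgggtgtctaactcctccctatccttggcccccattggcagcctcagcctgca
The Vip stretch is chr10:5638968-5639217 on the plus strand, the Elavl4 stretch chr4:110351912-110352161 on the minus strand and the S100b stretch chr10:76253586-76253835 on the plus strand. TGACGT begins 79 bases before the start of Vip. In this window of Elavl4 its reverse complement, ACGTCA, begins 58 bases before the start, and the reverse complement of ACAATG begins 147 bases before it. RefSeq has 4 start-site windows for Elavl4, and the one farthest upstream is shown. Of the other 3, a pair that overlaps holds CAGCTG, beginning 46 and 62 bases before the start. The Vip stretch also holds TATAAA, beginning 30, 147 and 157 bases before the start. The S100b stretch holds none of the 5 motifs. Of 32851 windows of the same length, 7.51% held TGACGT, 18.7% ACAAAG, 12.6% ACAATG, 16.3% CAGCTG and 13.6% TATAAA. These matches describe the letters only, and the motifs were chosen with the expression values known.

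Expression is given in FPKM, fragments scaled to transcript length and to the mapped fragments of the library, which allows levels to be compared between genes. Fragment totals are unknown, and the depth of the libraries relative to their median, read from the steps of low values, ran from 0.691 to 1.87. Under the WT label it was 0.691 to 0.852 in normal pieces and 0.9 to 1.23 in tumors. Depth and tissue thus cannot be told apart there. Under the KO label the ranges overlapped, at 0.827 to 1.21 and 0.847 to 1.87. Between 12074 and 13290 genes reached 1 FPKM per library. Maf, the targeted gene, was at 4.50 ± 1.37 FPKM (SD) in the 9 KO-labelled tumors and at 2.99 ± 2.39 FPKM (SD) in the 5 WT-labelled ones. Normal tissue held 3.24 ± 1.73 FPKM (SD, n = 6) under the KO label and 2.25 ± 0.678 FPKM (SD, n = 4) under the WT label. It was thus not lower under the KO label, and KO is used below as a label only. The 6 libraries with Xist at 1 FPKM or more were all KO-labelled, 4 normal pieces and 2 tumors, so this property cannot be fully separated from the label. The WT-old tumor had smooth muscle gene levels like those of normal tissue (Myh11 at 284 FPKM against 10.6 to 20.1 FPKM in the WT-young tumors), and tissue results are also given without the WT-old libraries.

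In the 10 normal pieces the order of median levels was Vip at 13.5 FPKM, Uchl1 at 7.54, S100b at 1.63, Gfap at 1.43, Sox10 at 0.733, Ret at 0.661, Nos1 at 0.616 and Elavl4 at 0.441 FPKM. The ranges of neighbours in this order overlapped. Among the 14 tumors the order was Uchl1 at 2.77 FPKM, Ret at 1.84, Vip at 1.75, S100b at 0.151, Nos1 at 0.121, Gfap at 0.111, Sox10 at 0.1 and Elavl4 at 0.0880 FPKM, again with overlapping ranges. Vip thus led the normal pieces, while Ret moved from the sixth place to the second in tumors.

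**Figure D1:**
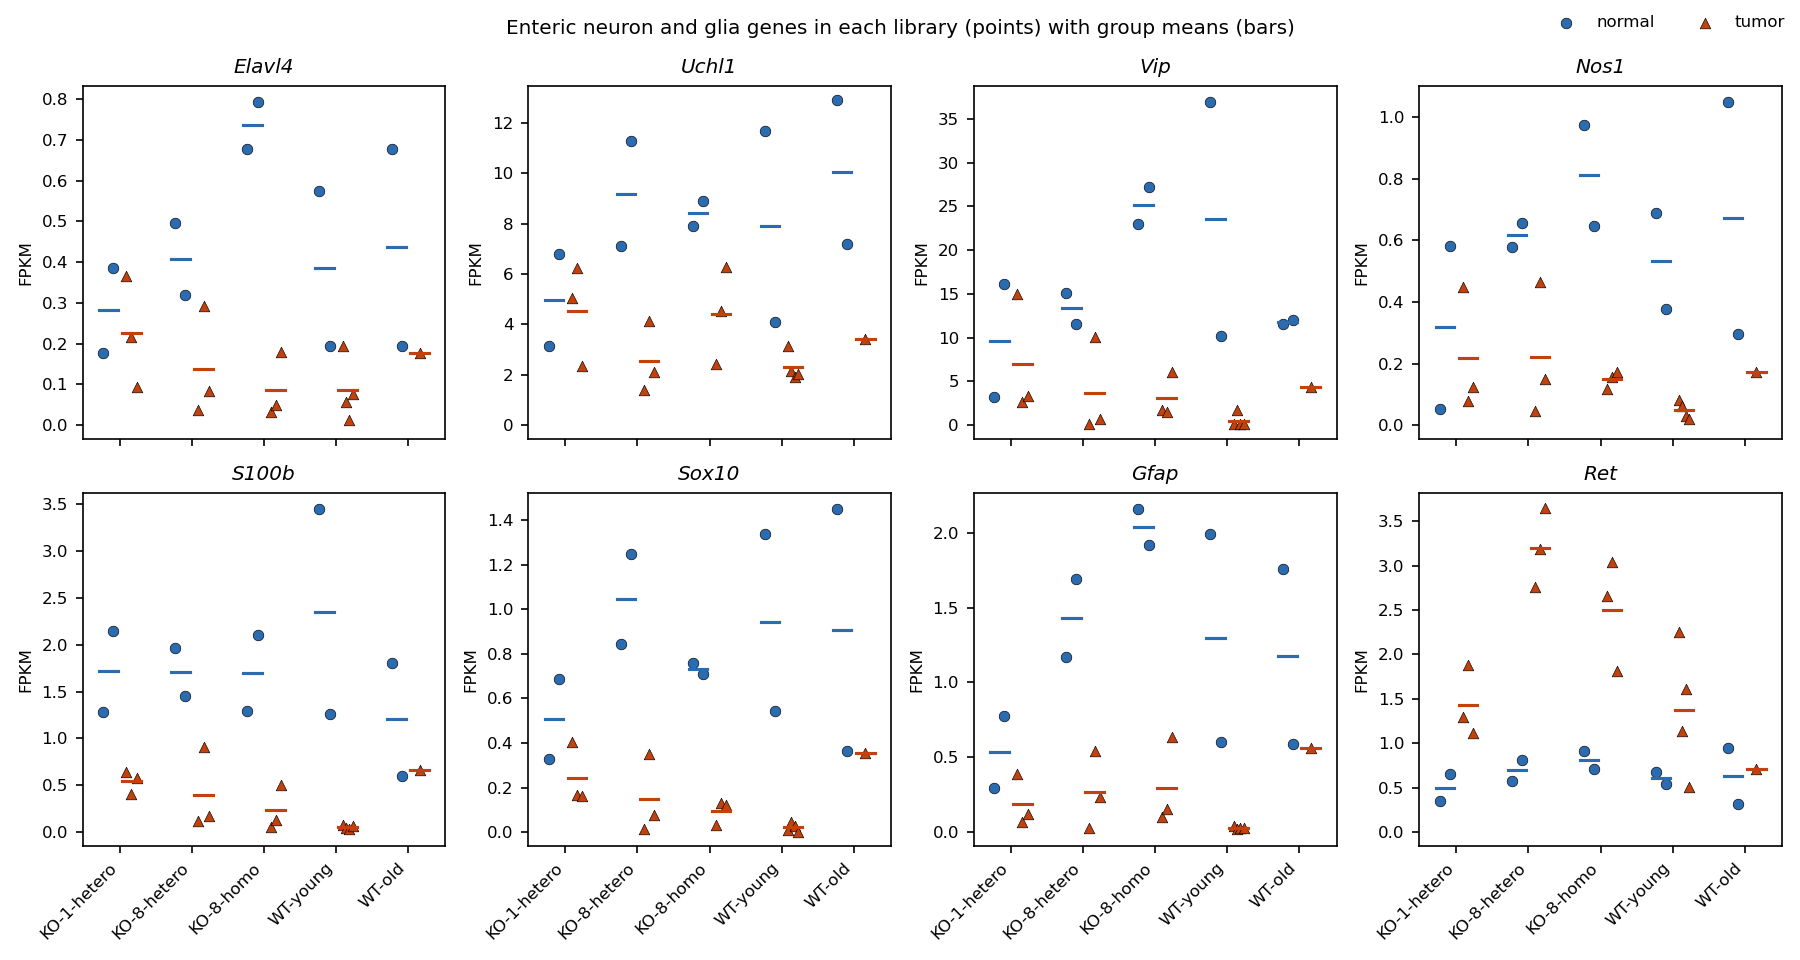
FPKM of the 8 genes in each library (points, 1 panel per gene, linear axes), with circles for normal pieces, triangles for tumors and bars for group means. The tumors lie low for 7 genes, and Ret is the exception, with tumors up to 3.65 FPKM against at most 0.947 FPKM in normal pieces.

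Under both genotype labels the tumors held less Vip, Uchl1, S100b and Gfap on average than the normal pieces. Ret was called higher under the KO label only. Tumor against normal was not tested by title group. KO-1-hetero means in normal pieces and tumors were 9.63 and 7.0 FPKM for Vip and 4.98 and 4.56 FPKM for Uchl1, with overlapping ranges. For S100b they were 1.72 and 0.542 FPKM and for Gfap 0.537 and 0.19 FPKM. In KO-8-hetero, Vip was at 13.3 and 3.65 FPKM and Uchl1 at 9.22 and 2.56 FPKM. In KO-8-homo, Vip was at 25.1 and 3.14 FPKM and Uchl1 at 8.41 and 4.41 FPKM. In bulk tissue, fewer nerve cells in a piece and less RNA per nerve cell cannot be told apart. The tests were made with limma on log2(FPKM + 1) over the 13799 genes that reached 1 FPKM in at least 4 libraries, with Benjamini-Hochberg adjustment over all of them, and 5 of the 8 genes were among those tested. Elavl4, Nos1 and Sox10 stayed below the filter. Of the 5, S100b and Gfap reached 1 FPKM in normal pieces only (9 and 6 of 10 libraries, 0 of 14 tumors), and Ret in tumors only (12 of 14 libraries, 0 of 10 normal pieces). These 3 thus passed the filter through the tissue where they were higher, and their tests below are to be read with that. With a mean of at least 0.1 FPKM over all libraries as the filter, all 8 genes were among 16464 tested. The limma adjusted p was then 0.000924 for S100b and 0.00596 for Gfap under the WT label, and 0.0002 for S100b, 0.000962 for Gfap and 0.000195 for Ret under the KO label.

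Vip, the peptide of inhibitory and secretomotor neurons, had the widest gap of the 8 genes under the WT label. In WT-labelled normal pieces it was at 36.9 and 10.2 FPKM in WT-young and 11.6 and 12 FPKM in WT-old. The WT-young tumors were at 0.136, 1.72, 0.108 and 0.112 FPKM and the WT-old tumor at 4.40 FPKM. All 5 tumors lay below all 4 normal pieces, and the means, 17.7 ± 12.8 FPKM (SD, n = 4) and 1.29 ± 1.87 FPKM (SD, n = 5), stood at a ratio of 13.6. The log2 difference, tumor minus normal, was -3.15 (SE 0.684, limma adjusted p 0.00177). With the KO label Vip ran from 3.19 to 27.2 FPKM in the 6 normal pieces (median 15.6) and from 0.0864 to 15.0 FPKM in the 9 tumors (median 2.64). These ranges overlapped, since the tumors KO-1-hetero 1 and KO-8-hetero 2 reached 15.0 and 10.1 FPKM while KO-1-hetero normal 1 was at 3.19 FPKM. The ratio of means was 3.49 there, below those of Gfap (5.31), Sox10 (4.71) and S100b (4.38) under this label. The log2 difference was -1.87 (SE 0.537, limma adjusted p 0.00692).

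Uchl1, the neuronal ubiquitin hydrolase, had the highest median of the 8 genes in tumors (2.77 FPKM). By mean it was close to Vip there (3.37 and 3.42 FPKM). WT-labelled normal pieces were at 11.7 and 4.10 FPKM (WT-young) and 12.9 and 7.18 FPKM (WT-old). The WT-young tumors held 3.13, 2.16, 1.90 and 2.03 FPKM and the WT-old tumor 3.42 FPKM, each below the lowest normal piece. The mean ratio of normal to tumor was 3.54, and the log2 difference was -1.41 (SE 0.341, limma adjusted p 0.00385). KO-labelled normal pieces ran from 3.16 to 11.3 FPKM (median 7.5) and KO-labelled tumors from 1.41 to 6.27 FPKM (median 4.15), with overlapping ranges. There the ratio was 1.96 and the log2 difference -0.85 (SE 0.268, limma adjusted p 0.0130). With only libraries with Xist under 1 FPKM, the KO-labelled log2 difference was -0.92 and no longer passed (limma adjusted p 0.0884).

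S100b, the glial calcium-binding protein, was at 3.45 and 1.26 FPKM in the WT-young and 1.81 and 0.594 FPKM in the WT-old normal pieces. WT-young tumors were at 0.0771, 0.0447, 0.0328 and 0.0612 FPKM, and the WT-old tumor, at 0.661 FPKM, lay above the lower WT-old normal piece. That library was the only overlap. The mean ratio of normal to tumor was 10.1 and the log2 difference -1.17 (SE 0.233, limma adjusted p 0.00094). Under the KO label every tumor (0.0571 to 0.905 FPKM, median 0.411) lay below every normal piece (1.28 to 2.15 FPKM, median 1.71). The log2 difference there was -0.97 (SE 0.183, limma adjusted p 0.000215), and the mean ratio was 4.38.

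Gfap, the glial filament protein, stood at 1.99, 0.600, 1.76 and 0.590 FPKM in the 4 WT-labelled normal pieces. It was at 0.0379, 0.0175, 0.0288 and 0.0238 FPKM in the WT-young tumors, and the WT-old tumor had 0.563 FPKM, so that tumors and normal pieces did not overlap. The log2 difference was -0.94 (SE 0.243, limma adjusted p 0.00636), at a mean ratio of 9.19. KO-labelled normal pieces ran from 0.296 to 2.16 FPKM (median 1.43) and KO-labelled tumors from 0.0287 to 0.635 FPKM (median 0.157). The KO-labelled log2 difference was -0.85 (SE 0.191, limma adjusted p 0.00106) and the ratio 5.31.

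Ret, the receptor for glial cell line-derived neurotrophic factors, went the other way. KO-labelled normal pieces ran from 0.344 to 0.908 FPKM, and the 9 KO-labelled tumors from 1.11 to 3.65 FPKM, all above them. The mean was 3.57 times higher in tumors, and the log2 difference was 0.98 (SE 0.181, limma adjusted p 0.000187). With the WT label Ret was at 0.672, 0.546, 0.947 and 0.314 FPKM in normal pieces. The WT-young tumors were at 2.25, 1.14, 1.61 and 0.507 FPKM and the WT-old tumor at 0.706 FPKM, so 3 of 5 tumors exceeded all normal pieces. That difference did not pass the test (log2 0.43, 95% interval -0.05 to 0.90, limma adjusted p 0.160). The difference between the labels in this tissue effect, tested as an interaction, did not pass either (0.55, 95% interval -0.05 to 1.16, limma adjusted p 0.986).

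Among all genes tested, 14.8% were called lower and 15.5% higher in WT-labelled tumors, and 23.2% lower and 24.1% higher in KO-labelled tumors. Beside these shares, Uchl1 and Vip, which reached 1 FPKM in both tissues, were called lower under each label. S100b and Gfap were also called lower under each label and Ret higher under the KO label only, but these 3 entered through 1 tissue and are not set against the shares. Every WT-labelled tumor lay below every WT-labelled normal piece for 10.9% of all genes tested and above for 12.3%. For KO-labelled tissue these shares were 7.05% and 8.48%. The median log2 difference over all genes was 0.02 under each label. Without the WT-old libraries the WT-labelled differences were -1.30 for Uchl1, -3.88 for Vip, -1.59 for S100b and -1.09 for Gfap (limma adjusted p 0.0459, 0.00453, 0.000483 and 0.0146).

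Elavl4, Nos1 and Sox10 were too low for the filter and were tested singly by exact permutation of the libraries, two-sided and unadjusted among 32 such tests. Nos1, the neuronal nitric oxide synthase, was at 0.297 to 1.05 FPKM in WT-labelled normal pieces and 0.0191 to 0.172 FPKM in the tumors, which did not overlap. Its exact permutation p was 0.0159, the smallest that 5 against 4 libraries allow. Sox10 was at 0.362 to 1.45 FPKM in WT-labelled normal pieces, at 0.00904, 0.0438, 0.0289 and 0 FPKM in the WT-young tumors and at 0.355 FPKM in the WT-old tumor. These groups did not overlap either, and the exact permutation p was again 0.0159. Elavl4 was at 0.195 to 0.677 FPKM in normal pieces and 0.0136 to 0.195 FPKM in tumors, with an exact permutation p of 0.0476 that rose to between 0.0714 and 0.107 in 8 of the 9 tests that each left out 1 library. Without all WT-old libraries, 4 against 2 remained. The differences in mean log2(FPKM + 1) were then -0.54 for Nos1, -0.90 for Sox10 and -0.34 for Elavl4. The exact permutation p was 0.133 for Nos1 and Sox10, the smallest that 4 against 2 libraries allow, and 0.267 for Elavl4. No gene could reach 0.05 in this setting, so it cannot decide whether these differences hold.

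The KO-labelled libraries gave the same direction for these low genes. Medians in normal pieces and tumors were 0.616 and 0.149 FPKM for Nos1, 0.733 and 0.131 FPKM for Sox10, and 0.441 and 0.0928 FPKM for Elavl4. The exact permutation p-values were 0.00999, 0.0012 and 0.00519. With only libraries with Xist under 1 FPKM, 7 tumors against 2 normal pieces, the differences in mean log2(FPKM + 1) were -0.59, -0.57 and -0.58. The exact permutation p was then 0.0556 for each, the smallest that this number of libraries allows. Nos1 ranges overlapped widely, because KO-1-hetero normal 1 was at 0.0518 FPKM, below 8 of the 9 tumors. With a filter on the mean FPKM (at least 0.1) and a pseudocount of 0.1, both chosen after seeing the data, limma tested 16464 genes. It called all 3 lower in WT-labelled tumors, where 13.9% of genes were called lower, with log2 differences of -1.96 for Nos1, -2.53 for Sox10 and -1.27 for Elavl4 (adjusted p 0.00463, 0.000699 and 0.0325). In KO-labelled tumors, where 21% of genes were called lower, the differences were -1.15, -1.80 and -1.24 (limma adjusted p 0.0175, 0.000701 and 0.00578).

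**Figure D2:**
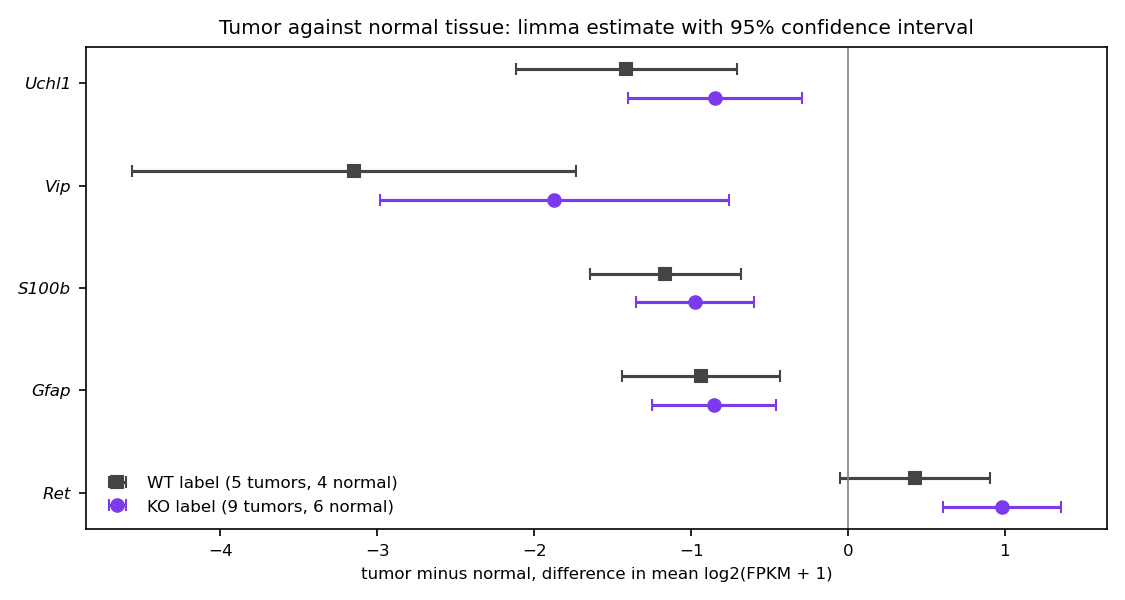
Tumor minus normal difference in mean log2(FPKM + 1) for the 5 genes past the expression filter, with 95% confidence intervals from limma, squares for the WT label and circles for the KO label. The 4 neuron and glia genes lie left of 0 under both labels, from -3.15 to -0.85, and Ret lies right of 0, with the WT-labelled interval reaching -0.05.

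Other genes of the plexus were read from lists that were drawn up with earlier results of these data known. Of 27 further neuronal genes, 18 passed the expression filter. In WT-labelled tumors 13 of the 18 fell and 0 rose (median log2 difference -1.12, against 0.02 for all genes), and in KO-labelled tumors also 13 fell and 0 rose (median -0.79). This is 72.2% under each label, where 14.8% and 23.2% of all genes tested were called lower (WT and KO label). Of the 18, 11 reached 1 FPKM in at least 4 tumors, while the others passed the filter with the help of normal pieces, so the count and median describe the tested genes only. Prph, the intermediate filament peripherin, had log2 differences of -1.97 with the WT and -1.57 with the KO label (limma adjusted p 9.72e-05 and 2.15e-05). Calb2, the calcium-binding calretinin of excitatory neurons, was at -2.34 and -1.74 (limma adjusted p 0.000224 and 0.000122), and Stmn3, a tubulin-binding stathmin, at -1.96 and -1.53 (adjusted p 0.000571 and 0.000225). Prph stood at 1.93 to 5.86 FPKM in WT-labelled normal pieces and 0.0288 to 0.753 FPKM in the tumors.

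Of 14 further genes of glia and Schwann cells, 8 were tested, and 2 fell and 1 rose with the WT label (median -0.42), as did 2 and 1 with the KO label (median -0.26). The shares, 25% lower and 12.5% higher, are near those of all genes under the KO label (23.2% and 24.1%) and rest on few genes, so no difference of the list from all genes is read from them. Cdh19, a cadherin of glia and Schwann cells, was at -0.95 and -0.69 with the WT and KO label (limma adjusted p 0.00928 and 0.0084). L1cam, a neural cell adhesion molecule, fell by 0.99 with the WT label (limma adjusted p 0.0309), and Entpd2, an ectonucleotidase of glia, fell by 0.69 with the KO label (adjusted p 0.0356). Gpm6b, a membrane proteolipid, rose by 0.79 and 1.15 (limma adjusted p 0.0233 and 0.000102). Sox2, which was not tested, reached 4.24 FPKM in a KO-labelled tumor, while the normal pieces held at most 0.140 FPKM.

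No tested co-receptor or ligand of Ret passed the test as higher in tumors. Of 9 tested genes of the Ret and endothelin pathways, 4 fell and 0 rose under each label (median -0.65 with the WT and -0.22 with the KO label). This is 44.4% lower, beside 14.8% and 23.2% of all genes, and 2 of the 9 had reached 1 FPKM in normal pieces only. Gfra3 and Gfra1, membrane-anchored co-receptors that present ligands to Ret, were at log2 differences of -0.95 and -1.02 in WT-labelled tumors (limma adjusted p 0.000921 and 0.00323). In KO-labelled tumors they were at -0.98 and -0.69 (adjusted p 2.46e-05 and 0.00503). Ece1, the endothelin-converting enzyme, fell by 0.68 with the WT label (limma adjusted p 0.00845) and Gfra4, another co-receptor, fell by 1.02 with the KO label (adjusted p 0.00523). Gdnf, the ligand of Gfra1, was below the filter, at medians of 0.790 and 0.1 FPKM in WT-labelled normal pieces and tumors and 0.440 and 0.359 FPKM in KO-labelled ones.

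The list for Vip and nitric oxide signalling held receptors, effectors and the nitric oxide synthases Nos2 and Nos3. Of this list 9 genes were tested, and 4 fell and 1 rose with the WT label (median -0.68). With the KO label 3 fell and 2 rose (median -0.43). The genes that rose were synthases, Nos2 with the WT label and Nos2 and Nos3 with the KO label. Among all genes 14.8% were lower and 15.5% higher with the WT label, and 23.2% and 24.1% with the KO label, so the KO-labelled count (33.3% and 22.2%) is near that of all genes. Vipr1, the Vip receptor of epithelium, was at -0.93 and -0.98 (limma adjusted p 0.0155 and 0.00114). Pde5a, the phosphodiesterase that degrades cyclic GMP, was at -0.72 and -0.39 with the WT and KO label (limma adjusted p 0.0109 and 0.0485). Adcyap1r1, a receptor of a peptide related to Vip, was at -0.67 and -0.65 (limma adjusted p 0.0474 and 0.01). Nos2, the inducible nitric oxide synthase of inflamed tissue, rose by 1.89 and 1.91 (limma adjusted p 0.00806 and 0.000603). Nos3, the endothelial isoform, was at 0.14 and 0.39 (limma adjusted p 0.613 and 0.0466).

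**Figure D3:**
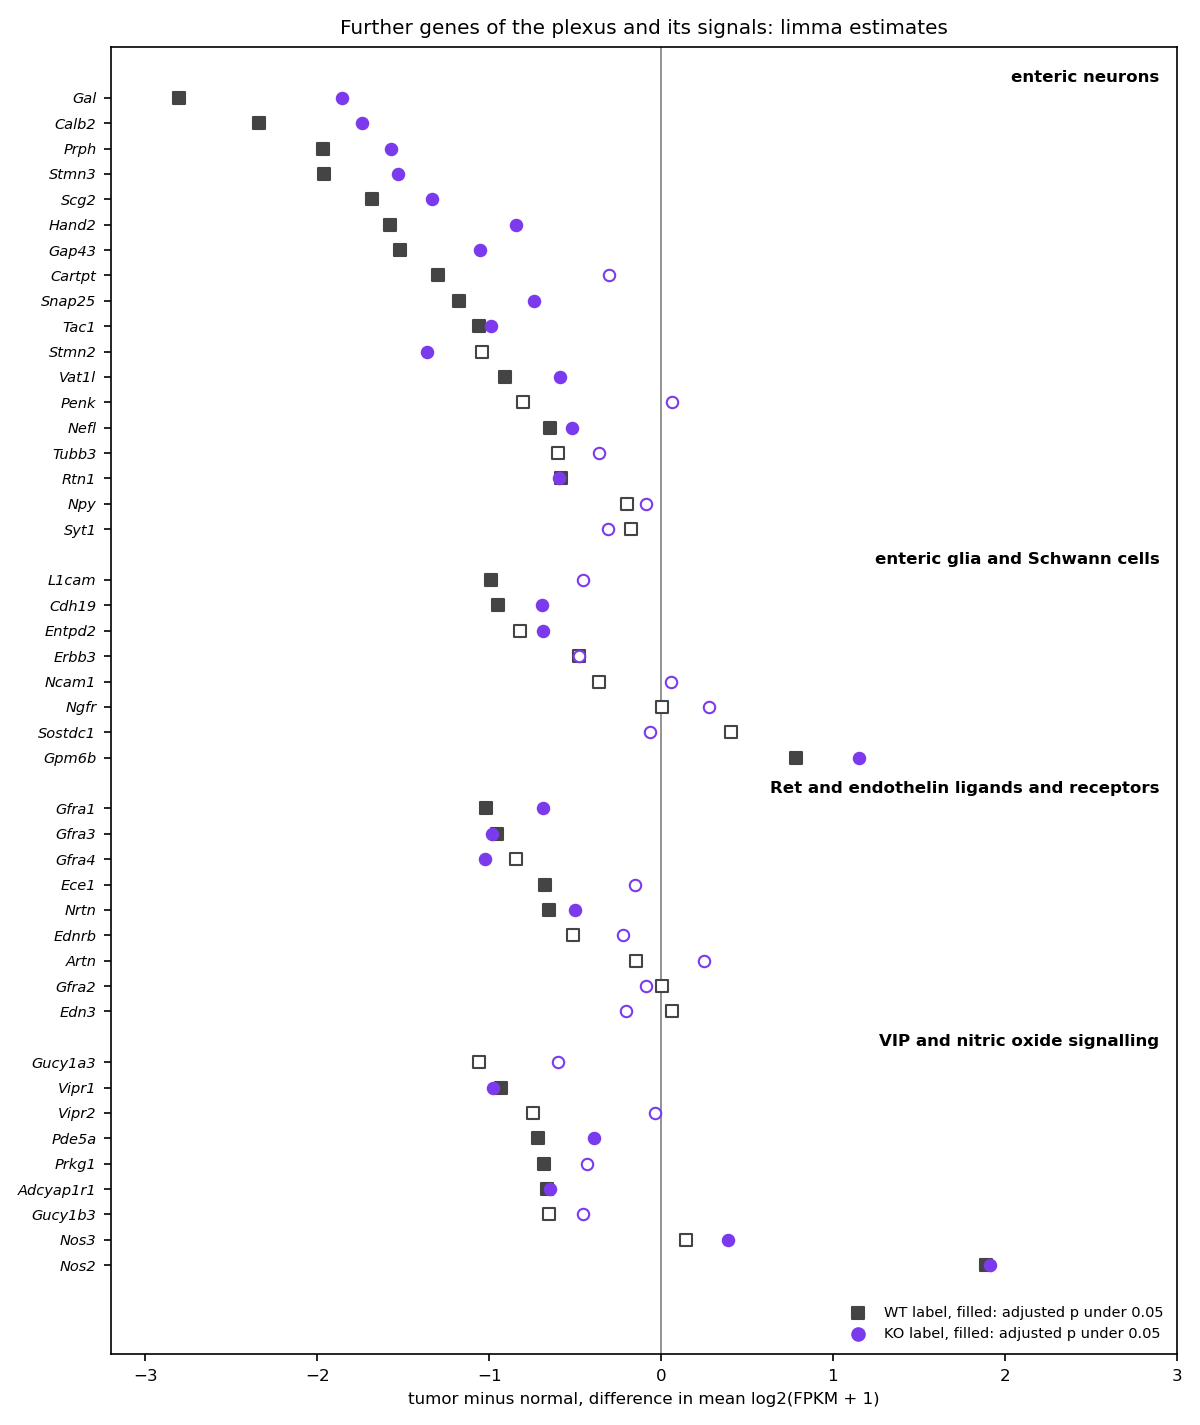
Tumor minus normal difference in mean log2(FPKM + 1) for the tested genes of 4 lists (neurons, glia and Schwann cells, Ret and endothelin pathways, Vip and nitric oxide signalling), squares for the WT and circles for the KO label, filled where the limma adjusted p was under 0.05. All filled neuronal genes lie left of 0, while Gpm6b and Nos2 lie right of it under both labels.

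Genes of other cell types also differed between tumors and normal pieces, and their counts are to be read beside the shares of all genes called lower (14.8% with the WT and 23.2% with the KO label) and higher (15.5% and 24.1%). All 10 smooth muscle genes fell under both labels (median log2 difference -2.34 with the WT and -1.82 with the KO label). Their summed level was 957 to 7312 FPKM in WT-labelled normal pieces and 188 to 2973 FPKM in WT-labelled tumors, and 1433 to 4687 and 257 to 1340 FPKM with the KO label. Of 9 enteroendocrine genes 6 fell under the WT and 8 under the KO label (medians -1.62 and -1.50). The summed enteroendocrine level was 322 to 642 and 45.3 to 181 FPKM in WT-labelled normal pieces and tumors, and 355 to 1121 and 50.2 to 216 FPKM in KO-labelled ones. The 5 colonocyte genes held 4 that fell under each label, and the 4 mast cell genes all rose. The remaining lists gave counts of few genes, several of them near the shares of all genes. Of 6 leukocyte genes 2 rose under each label. The 7 epithelial genes held 1 and 3 that fell (WT and KO label), the 5 tested mesothelium and fat genes 1 and 3 that fell and 1 that rose, the 4 endothelial genes 0 and 1 that rose, and the 4 tested genes of interstitial cells 1 that fell, with 1 that rose under the KO label. In these lists 0 genes were at 0 in every library, and the part of these cells in the levels of the neuron and glia genes was not tested.

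Across the 14 tumors, the levels of the plexus genes followed that of Myh11, the smooth muscle myosin heavy chain. Pearson's r on log2(FPKM + 1) was 0.909 for S100b (Spearman's rho 0.960), 0.881 for Sox10 (0.895), 0.844 for Gfap (0.859) and 0.811 for Vip (0.855). The adjusted permutation p-values of r were 0.00016, 0.00016, 0.000693 and 0.00156, over 16 relations. Nos1 (r 0.702, rho 0.864) and Elavl4 (r 0.625, rho 0.679) also passed, at adjusted permutation p-values of 0.0137 and 0.0343. Uchl1 passed by rank (rho 0.644, adjusted permutation p 0.0244) but not by r (0.525, adjusted permutation p 0.0776), and for Ret the coefficients were near 0 (r -0.05, rho 0.05, adjusted permutation p 0.860). Without the 2 tumors farthest from the median of Myh11, r was 0.909 for S100b, 0.800 for Sox10, 0.734 for Gfap, 0.853 for Vip, 0.758 for Nos1 and 0.598 for Elavl4. Since the WT-young tumors were low in all of these genes, the relation was also read in the 9 KO-labelled tumors alone, chosen after seeing the data. There r was 0.965 for S100b, 0.895 for Vip, 0.850 for Sox10, 0.796 for Nos1, 0.782 for Elavl4 and 0.751 for Gfap (exact permutation p, adjusted over 8 relations, 0.000661 to 0.0379). Uchl1 (r 0.481) and Ret (r -0.42) did not pass in the KO-labelled tumors, with adjusted exact permutation p-values of 0.204 and 0.261. Gfap did not pass by rank there (rho 0.683, adjusted exact permutation p 0.0671). Without the 2 of these tumors farthest from the median of Myh11, r was 0.922 for S100b, 0.853 for Vip and 0.758 for Sox10. It was 0.580 for Elavl4, 0.578 for Gfap, 0.533 for Nos1, 0.449 for Uchl1 and -0.793 for Ret. These reduced sets were not tested.

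In the 10 normal pieces the outcome depended on the muscle gene used. Against Myh11, Elavl4 (r 0.794, rho 0.758), Vip (r 0.764, rho 0.782) and S100b (r 0.681, rho 0.527) passed by r, with adjusted permutation p-values of 0.0197, 0.0137 and 0.0479, and without the 2 farthest pieces r was 0.761, 0.677 and 0.780. Nos1 was at 0.636, Gfap at 0.626, Ret at 0.522, Sox10 at 0.425 and Uchl1 at 0.355, with adjusted permutation p-values of r of 0.0716 to 0.334. By rank Elavl4, Vip and Gfap passed (Gfap rho 0.794, adjusted permutation p 0.0211). Against Des, the muscle intermediate filament desmin, all 8 genes passed by r in normal pieces (r 0.684 to 0.855, adjusted permutation p 0.00598 to 0.0317), and S100b and Gfap passed by rank. Without the 2 pieces farthest from the median of Des, r ran from 0.202 (Ret) to 0.726 (Gfap), so part of these relations rests on those pieces. KO-8-hetero normal 2 stood out against Myh11, with that gene at 62.2 FPKM but Uchl1 at 11.3, Sox10 at 1.25 and Gfap at 1.69 FPKM, while KO-1-hetero normal 1 had a like Myh11 level (61.8 FPKM) with Uchl1 at 3.16, Sox10 at 0.330 and Gfap at 0.296 FPKM. Des differed between these pieces as the plexus genes did, at 589 and 121 FPKM.

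**Figure D4:**
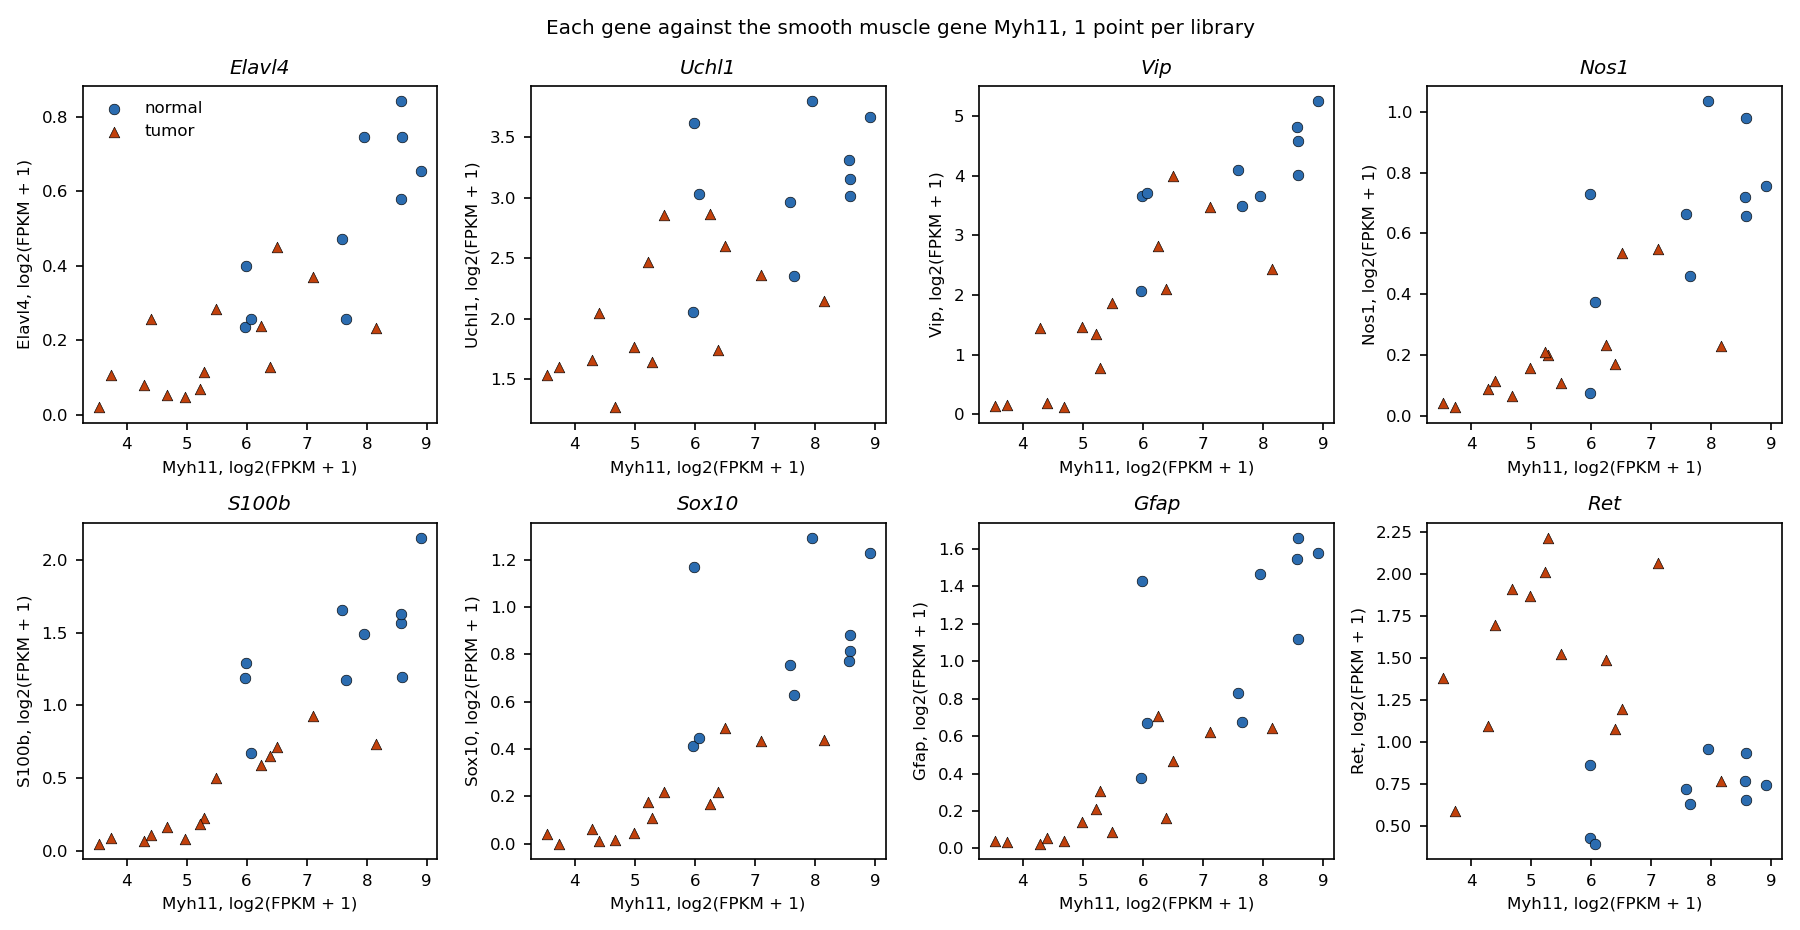
Each gene against Myh11, both as log2(FPKM + 1), 1 point per library, with circles for normal pieces and triangles for tumors. Tumor points rise with Myh11 for S100b (r 0.909), Sox10, Gfap and Vip, while r is -0.05 for Ret.

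The genes also varied together in single pieces. Over the tumors, the 21 pairs among the 7 genes other than Ret had r between 0.535 and 0.904 (median 0.772), whereas the 7 pairs with Ret lay between -0.12 and 0.212 (median -0.06). In normal pieces Ret did not stand apart, with r between 0.442 and 0.932 (median 0.751) against 0.419 to 0.887 (median 0.682) for the other pairs. These correlations are descriptions, and the points share library depth and the smooth muscle level. Tumors KO-1-hetero 1 and KO-8-hetero 2 were among the 3 highest of 14 for 6 of the 7 genes. KO-1-hetero normal 1 and WT-young normal 2 were among the 3 lowest of 10 normal pieces for all 7 genes.

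Tested genes with the pattern most like each of the 5 genes were named by r over the same libraries, again as a description. Over tumors, Vip was most like Htr3a (r 0.962), a serotonin receptor subunit of enteric neurons, followed by Prph (0.940) and Gap43 (0.934), a growth cone protein. S100b was most like Cckar (0.958), a cholecystokinin receptor, Arl4d (0.944) and the chemokine Cxcl12 (0.943). Gfap was most like the muscle proteins Flnc (0.946) and Hspb7 (0.922), and the angiotensin receptor Agtr1a (0.908). For Uchl1 these were Fkbp9 (0.860), Gng3 (0.822) and Tmem59l (0.813), and for Ret Emc8-1190005i06rik (0.892), Sema7a (0.871) and Fkbp1a (0.868). In the 10 normal pieces, Vip was most like Ndrg4 (0.921), Ptpn11 (0.906) and Calb2 (0.896). There Uchl1 was most like Them6 (0.969), Rtn1 (0.948) and Fkbp1a (0.926), and Ret most like Camk2n2 (0.966), Tbc1d16 (0.954) and Habp4 (0.941). S100b was most like Tpst1 (0.952), Gm11627 (0.942) and Cyp2j9 (0.931), and Gfap most like Gatsl2 (0.963), Fam117a (0.957) and Wnk2 (0.948).

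The series title sets KO against WT, and by genotype label none of the 5 tested genes passed the threshold in tumors. Ret had the smallest p, with 2.38 ± 0.888 FPKM (SD) in the 9 KO-labelled and 1.24 ± 0.705 FPKM (SD) in the 5 WT-labelled tumors. Its log2 difference was 0.60 (SE 0.192, 95% interval 0.20 to 1.00, limma adjusted p 0.419). Vip was at 4.59 ± 5.01 and 1.29 ± 1.87 FPKM (log2 difference 1.13, 95% interval -0.05 to 2.30, limma adjusted p 0.622). Uchl1, S100b and Gfap differed by 0.38, 0.24 and 0.15 (limma adjusted p 0.760, 0.770 and 0.888). Over all genes, limma called 0.00725% in this comparison, 1 gene, and 1147 genes had an unadjusted p under 0.05. Among the 5 genes the unadjusted p was under 0.05 for Ret only (0.00473). Nos1 and Sox10 had exact permutation p-values of 0.0569 and 0.327, which were 0.0140 and 0.0168 without the WT-old tumor. These are unadjusted, and that setting is 1 of several alternatives. The differences in mean log2(FPKM + 1) were then 0.18 for each gene. The WT-young tumors were near the floor, at most at 0.0821 FPKM for Nos1 and 0.0438 FPKM for Sox10. When each title group had equal weight, the Ret difference was 0.73 (limma adjusted p 0.0311). That setting gives the single WT-old tumor, with Ret at 0.706 FPKM, the weight of the 4 WT-young tumors together. The share of all genes called in it is not given here. In the 14 fits that each left out 1 library, 0 of the 5 genes were called.

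In normal tissue the labels gave differences near 0. The log2 differences, KO minus WT label, were -0.19 for Uchl1, -0.15 for Vip, 0.06 for Gfap, 0.05 for S100b and 0.05 for Ret, each with a limma adjusted p of 1. The 95% intervals were -0.87 to 0.49 for Uchl1, -1.51 to 1.21 for Vip and -0.41 to 0.51 for S100b and Ret, so sizable differences in Vip would not have been detected. Exact permutation p-values for all 8 genes lay between 0.619 and 0.886. Limma called 0% of genes in this comparison (0 genes, with 645 at an unadjusted p under 0.05). It also called 0% for the interaction of tissue and label (0 genes, with 654 at an unadjusted p under 0.05). The interaction was 1.28 for Vip, 0.57 for Uchl1, 0.19 for S100b and 0.08 for Gfap, with adjusted p-values of 0.986, 0.986, 0.986 and 0.995.

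Each KO group was then set against the 4 WT-young tumors, which serve as controls for all 3 comparisons. None of the 5 genes passed in any of them, where limma called 2.88% of all genes for KO-1-hetero, 0.00725% for KO-8-hetero and 0.457% for KO-8-homo. The genes at an unadjusted p under 0.05 numbered 2632, 961 and 1399. The share of all genes without overlap was not obtained for 3 against 4 libraries. Statements below that tumors lie above all WT-young tumors are therefore descriptions only. Vip in KO-1-hetero tumors was at 15.0, 2.64 and 3.31 FPKM, all above the WT-young tumors (0.108 to 1.72 FPKM), with a log2 difference of 2.18 (SE 0.727, limma adjusted p 0.111). In KO-8-homo it was at 1.77, 1.54 and 6.10 FPKM (1.40, adjusted p 0.551), and in KO-8-hetero at 0.0864, 10.1 and 0.717 FPKM (0.98, adjusted p 0.767). The KO-8-hetero value rested on its second tumor and was -0.03 without it.

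S100b in KO-1-hetero tumors was at 0.642, 0.411 and 0.573 FPKM, against at most 0.0771 FPKM in WT-young tumors, a log2 difference of 0.55 (SE 0.250, limma adjusted p 0.243) on a scale that compresses such low values. With a pseudocount of 0.01 that difference was 3.14 (limma adjusted p 0.0304). KO-8-hetero tumors held 0.118, 0.905 and 0.167 FPKM of S100b, also all above WT-young, and KO-8-homo tumors 0.0571, 0.134 and 0.501 FPKM. Myh11 moved with these values. The KO-1-hetero tumors had 90.0, 44.0 and 82.9 FPKM of it, KO-8-hetero had 24.6, 137 and 38.0 FPKM, and KO-8-homo had 30.6, 36.4 and 74.9 FPKM, all above the WT-young tumors (10.6 to 20.1 FPKM). In KO-1-hetero against WT-young, 3 of 10 smooth muscle genes (Lmod1, Cnn1 and Des) and 1 of 18 further neuronal genes rose, the latter being the transcription factor Hand2 (log2 difference 1.32, limma adjusted p 0.0327). The part of the smooth muscle level in the S100b and Vip values was not tested.

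The KO groups were not tested against each other. Ret was at 2.76, 3.19 and 3.65 FPKM in KO-8-hetero tumors, all above the WT-young tumors (0.507 to 2.25 FPKM), with a log2 difference of 0.87 (SE 0.221, limma adjusted p 0.497). KO-8-homo tumors were at 2.66, 3.04 and 1.81 FPKM (0.60, adjusted p 0.334), and KO-1-hetero tumors at 1.29, 1.88 and 1.11 FPKM (0.07, 95% interval -0.39 to 0.54, adjusted p 0.896). For Uchl1, the KO-1-hetero tumors had 5.06, 6.26 and 2.34 FPKM, KO-8-hetero had 1.41, 4.15 and 2.12 FPKM, and KO-8-homo had 2.41, 4.54 and 6.27 FPKM. Its differences from WT-young were 0.69, 0.05 and 0.66 (limma adjusted p 0.327, 0.981 and 0.587). Gfap differed by 0.20, 0.28 and 0.31 in the same order (limma adjusted p 0.689, 0.783 and 0.697).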

How the data were processed

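The authors deposited 1 table of gene symbols and FPKM values for each of the 24 libraries, per the file headers. RNA was isolated by miRNeasy and made into stranded TruSeq mRNA libraries, per the labels' protocols. The submitters' processing notes name mm10, TopHat2 2.1.1, Bowtie2 2.2.8, SAMtools 0.1.18 and Cuffdiff 2.2.1, and the annotation is not given in the sources used here. Groups were taken from the titles and the genotype and tissue labels. Fragment counts are unknown, so no counting interval is given, and no replicates held identical values (0 pairs).

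Differences were tested with limma 3.58.1 (R 4.3.3, moderated statistics with an intensity trend) on log2(FPKM + 1) for 13799 genes with at least 1 FPKM in at least 4 libraries, with Benjamini-Hochberg adjustment and a threshold of 0.05. One model with 4 cells (label by tissue) gave the label and tissue comparisons, and one with the 10 title groups the single-group comparisons. A fold change on this scale understates changes of low genes. Exact permutation tests (two-sided) and correlations with 100000 permutations used scipy 1.17.1. The limma script was tested on simulated data. Alternatives covered the pseudocount, the filter on low values, scaling, group weights, the WT-old libraries, libraries with Xist under 1 FPKM, a replicate block and leaving out each library. The rule for named genes was all 8 members, up to 3 genes by p from each list in a comparison, and the 3 genes most like each tested member. The members and the 13 lists (123 genes, 2 of them not matched) were chosen with earlier results of these data known. Other genes named, such as Sox2 and Gdnf, were chosen after their values were seen. Values of 2 list genes are not reported here, and their lists are counted without them.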

Additional observations from a re-analysis of the deposited data

Results flagged for a closer look

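Among 40 groups of 4 to 10 libraries examined for a single library far from the rest, 5 gave one. The rate of about 1 in 20 by chance holds for independent groups. Here the groups share libraries and the genes vary together, so the 5 are not set against that rate. Vip in WT-young tumor replicate 2 was at 1.72 FPKM, while the other 3 WT-young tumors were at 0.108 to 0.136 FPKM. Vip in WT-young normal replicate 1 was at 36.9 FPKM, against 10.2 to 12 FPKM in the other WT-labelled normal pieces. The WT-old tumor was far above the WT-young tumors in the 3 glial genes, with S100b at 0.661 FPKM, Sox10 at 0.355 FPKM and Gfap at 0.563 FPKM. The same tumor had Myh11 at 284 FPKM, and the part of smooth muscle in these values was not tested.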

How the results depend on the processing

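In tumor against normal tissue, the 4 calls under the WT and 5 under the KO label were also made under both scalings, without the WT-old libraries and in each fit without 1 library (lowest and highest count 4 and 4, 5 and 5). These counts include S100b, Gfap and, under the KO label, Ret, which entered through 1 tissue. Uchl1 and Vip, which reached 1 FPKM in both tissues, passed in each fit without 1 library (limma adjusted p at most 0.0398). Shares of all genes called in these settings are not given here. With no filter, with a mean of at least 0.1 FPKM, and with that filter and a pseudocount of 0.1 (chosen after seeing the data), all 8 genes were tested and 7 and 8 were called (WT and KO label). With the mean filter the KO-labelled calls include Ret as higher and the others as lower. In the setting with the pseudocount of 0.1, 13.9% and 21% of all genes were called lower (WT and KO label). For the other settings such shares are not given here. Only libraries with Xist under 1 FPKM gave 4 calls with the KO label. Whether the replicate numbers pair the pieces is not known, and 8 correlations (from -0.16 to 0.36) cannot decide it. With a replicate block 3 and 4 genes were called (WT and KO label). Vip was lost there, at log2 differences of -2.78 and -1.83 (limma adjusted p 0.0961 and 0.076). In KO against WT tumors 1 gene, Ret, was called with equal weight per title group (0 in the main comparison). That setting gives the single WT-old tumor the weight of the 4 WT-young tumors together. In KO-1-hetero against WT-young, 1 gene, S100b, was called with a pseudocount of 0.01 or with the mean filter and 0.1 (adjusted p 0.0304 and 0.0483). With Des in place of Myh11, 15 of 16 relations passed, against 9.

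No value that changed sign was called, and the cause was not tested. With equal weight per title group these were Gfap in KO against WT tumors (-0.036) and, in the interaction, S100b (-0.0057) and Gfap (-0.098). Without WT-old libraries, KO minus WT in normal tissue was 0.012 for Uchl1, -0.24 for S100b and 0.029 for Nos1. With Xist under 1 FPKM it was 0.021 for Uchl1, 0.68 for Vip and 0.19 for Nos1, and the Gfap interaction was -0.34. Ret in KO-1-hetero against WT-young was -0.048 after quantile normalization and -0.13 with the replicate block. Over fits without 1 library, KO minus WT in normal tissue ran from -0.48 to 0.0046 for Uchl1, -0.049 to 0.14 for Ret, -0.34 to 0.26 for Vip, -0.18 to 0.31 for S100b, -0.080 to 0.22 for Gfap, -0.0066 to 0.16 for Elavl4, -0.11 to 0.11 for Nos1 and -0.25 to 0.035 for Sox10. The interaction ran from -0.069 to 0.42 for S100b and -0.076 to 0.23 for Gfap. Against WT-young, Ret in KO-1-hetero ran from -0.13 to 0.24, and in KO-8-hetero Uchl1 ran from -0.25 to 0.29 and Vip from -0.033 to 1.65. Of the single values, 1049 kept direction and side of the threshold, 39 changed sign, 11 passed newly and 17 no longer passed. Fragment totals are unknown, and levels under 0.1 FPKM rest on few fragments.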
